A study of Mus musculus with 10 samples.

Results

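The cytosolic ribosomal protein genes were taken as the mouse protein-coding genes on chromosomes 1 to 19 whose symbol is Rpl or Rps plus a number, with at most 1 suffix letter a, x or l, together with Rplp0, Rplp1, Rplp2 and Rpsa and without the Rps6k kinases. The rule uses names and no measured value. It found 77 of the 20665 protein-coding genes of these chromosomes, 47 of the large subunit and 30 of the small subunit. The group was chosen as a set of genes in constant use, against which each library could be read. It was described in 8 peak lists from mouse retina of strain C57BL/6. Accessible chromatin was mapped by ATAC-seq, in which the Tn5 transposase cuts open DNA, in retinal explants labelled postnatal day 2. The explants were transfected with plasmids for GFP alone (control, labelled wild type, 2 libraries) or for GFP together with Cre recombinase (Casz1 cKO, conditional loss of the zinc finger transcription factor Casz1, 2 libraries). They were kept 2 days ex vivo, and living GFP+ cells were sorted. H3K27ac, a histone mark of active promoters and enhancers, and H3K27me3, a repressive mark set by Polycomb complexes, were mapped by ChIP-seq in microdissected retina labelled P0, each in 1 wild-type control and 1 Casz1 cKO library. For the ChIP-seq, cKO tissue was picked from the peripheral retina by its fluorescence, and no such choice is stated for the control tissue, so region and genotype cannot be told apart there. The sources used here do not give the Cre line of the ChIP-seq tissue, the deleted exons or the number of animals behind a library. P-values over the ATAC libraries therefore measure only the spread between these samples. In such mixed tissue, a mark in fewer cells and a weaker mark per cell cannot be told apart.

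The cytosolic ribosome reads mRNA in every cell, and its proteins are built in near-equal numbers on the ribosomal RNA scaffold. Their genes are scattered over the genome, as a rule 1 gene per protein, and are among the most transcribed genes of growing and neuronal cells. Many begin transcription at a C inside a run of pyrimidines, the 5' terminal oligopyrimidine (TOP) motif, through which the mTOR kinase adjusts their translation. A few have paralogs used in single tissues: Rpl3l in striated muscle, and Rpl10l and Rpl39l in the testis.

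The start sequences of 12 genes are shown, to set those with the pyrimidine run beside those without it and those that were not open. RefSeq promoter entries of GRCm38.p6, the assembly called mm10, matched 57 of the 77 genes. Rpl7, Rps20, Rpl21, Rpl32, Rplp1, Rpl29, Rps27a, Rpl23a, Rps29, Rpl30, Rpl8, Rpl3, Rpl36, Rps14 and Rpl17 were among those with no entry. Each line gives 60 bases before the annotated start and the first 12 transcribed bases, 5' to 3' on the gene's strand. Capitals mark the unbroken run of pyrimidines from the first transcribed base, where it is at least 5 bases long, and the motif CCGGAA or its reverse complement TTCCGG. The first 6 genes have the run, Rplp0 and Rpl24 do not, and the last 4 are the members with no ATAC peak near their start.
Rpl35 (chr2:39005120-39005191, minus strand): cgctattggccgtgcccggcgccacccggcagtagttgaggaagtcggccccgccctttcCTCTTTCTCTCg
Rps6 (chr4:86857356-86857427, minus strand): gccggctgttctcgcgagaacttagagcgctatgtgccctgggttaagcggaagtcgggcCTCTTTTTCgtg
Rpl27a (chr7:109519135-109519206, plus strand): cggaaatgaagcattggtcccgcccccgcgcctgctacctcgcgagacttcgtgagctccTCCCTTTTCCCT
Rpl15 (chr14:18270975-18271046, minus strand): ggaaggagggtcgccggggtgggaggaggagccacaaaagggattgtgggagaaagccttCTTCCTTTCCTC
Rps10 (chr17:27635233-27635304, minus strand): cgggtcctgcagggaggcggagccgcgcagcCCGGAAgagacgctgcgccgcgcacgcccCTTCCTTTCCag
Rps18 (chr17:33955654-33955725, minus strand): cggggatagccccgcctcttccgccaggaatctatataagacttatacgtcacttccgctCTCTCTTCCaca
Rplp0 (chr5:115559407-115559478, plus strand): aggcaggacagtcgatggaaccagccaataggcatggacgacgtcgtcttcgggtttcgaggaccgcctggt
Rpl24 (chr16:55966215-55966286, plus strand): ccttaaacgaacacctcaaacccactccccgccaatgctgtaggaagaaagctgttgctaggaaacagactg
Rpl3l (chr17:24727766-24727837, plus strand): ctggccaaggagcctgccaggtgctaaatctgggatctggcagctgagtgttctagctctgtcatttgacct
Rpl10l (chr12:66284390-66284461, minus strand): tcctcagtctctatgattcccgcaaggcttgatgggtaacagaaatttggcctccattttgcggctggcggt
Rpl39l (chr16:10170168-10170239, plus strand): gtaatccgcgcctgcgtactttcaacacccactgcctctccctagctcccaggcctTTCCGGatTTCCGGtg
Rpl32l (chr10:20208379-20208450, plus strand): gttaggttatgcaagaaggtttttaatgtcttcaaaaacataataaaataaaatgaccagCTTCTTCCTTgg
Rps6 is the small-subunit protein phosphorylated downstream of mTOR, Rplp0 is the base of the acidic stalk of the large subunit, and Rpl24 lies at the face between the subunits. The run printed for Rpl27a continues past the 12 bases shown, to 16. A run of at least 5 pyrimidines from the annotated first base was present in 16 of 57 ribosomal protein promoters (28.1%) and in 3.83% of the 16457 promoters of all genes with an entry. Within 5 bases of the annotated start it was found in 33 of 57 (57.9%) and in 32.8% of all. The first base was C in 20 of 57 (35.1%) and in 13.8% of all. Over the whole 300 bases of an entry, from 250 before the start to 50 after it, 6 further motifs were searched on both strands. CCGGAA was present in 28 of 57 (49.1%) and in 19.6% of all promoters, GGGCGG in 32 (56.1% against 47.3%) and AAGATGG in 9 (15.8% against 6.4%). GCGCATG was present in 6 (10.5% against 4.93%), CACGTG in 5 (8.77% against 7.97%) and TATAAA in 5 (8.77% against 13.5%). Among genes with an ATAC peak within 1 kb of the start in all 4 lists, CCGGAA was present in 27 of 52 ribosomal protein promoters (51.9%) and in 29.7% of the 9395 promoters of all such genes. There the pyrimidine run was present in 15 of 52 (28.8%) and 3.9%. For GGGCGG the direction turned among these genes, with 31 of 52 (59.6%) against 68.4%. For TATAAA the shares were close there, with 3 of 52 (5.77%) against 6.08%. The other motifs were not counted in this subset. Matches of different motifs may overlap and were counted separately, and a match is a description of letters, not a binding site.

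Nearly all ribosomal protein genes were open and acetylated in every library. A peak within 1 kb of either annotated gene end was present for 70, 72, 72 and 71 of the 77 genes in control ATAC 1, control ATAC 2, cKO ATAC 1 and cKO ATAC 2. The shares over all protein-coding genes were 56.7%, 69.9%, 68.6% and 61.6%. For H3K27ac the counts were 75 in the control and 74 in the cKO library, against 62.2% of all genes in both. For H3K27me3 they were 7 and 7, against 29.3% and 28.8% of all genes. The ATAC counts thus differed by at most 2 genes between lists whose lengths ran from 39636 to 108569 peaks. In all 4 ATAC lists and both H3K27ac lists together, 69 of 77 genes (89.6%) had such a peak, against 53.8% of all genes. The small subunit had a peak for 28 to 29 of its 30 genes in each ATAC list and the large subunit for 42 to 43 of its 47.

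The width of what was marked followed the list. Covered bases were counted in windows of 5 kb either side of both gene ends, overlapping windows once. The median over the 77 genes was 724 bp in control ATAC 1, 1494 bp in control ATAC 2, 1402 bp in cKO ATAC 1 and 879 bp in cKO ATAC 2. The corresponding medians over all genes, with or without a peak, were 396, 1264, 1166 and 608 bp. Over the genes of any kind with a covered base in the windows they were 617, 1498, 1396 and 793 bp. By this measure the ATAC lists fell into a wide and a narrow pair, each with 1 control and 1 cKO list. The same order held in the total length of the lists on chromosomes 1 to 19, which was 11.62, 59.79, 51.61 and 19.6 Mb. H3K27ac covered a median of 2339 bp in the control and 2248 bp in the cKO library, against 1232 and 1176 bp over all genes. Over the genes of any kind with H3K27ac in the windows the medians were 1768 and 1683 bp. The H3K27me3 median was 0 bp in both, for these genes as for all genes.

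**Figure D1:**
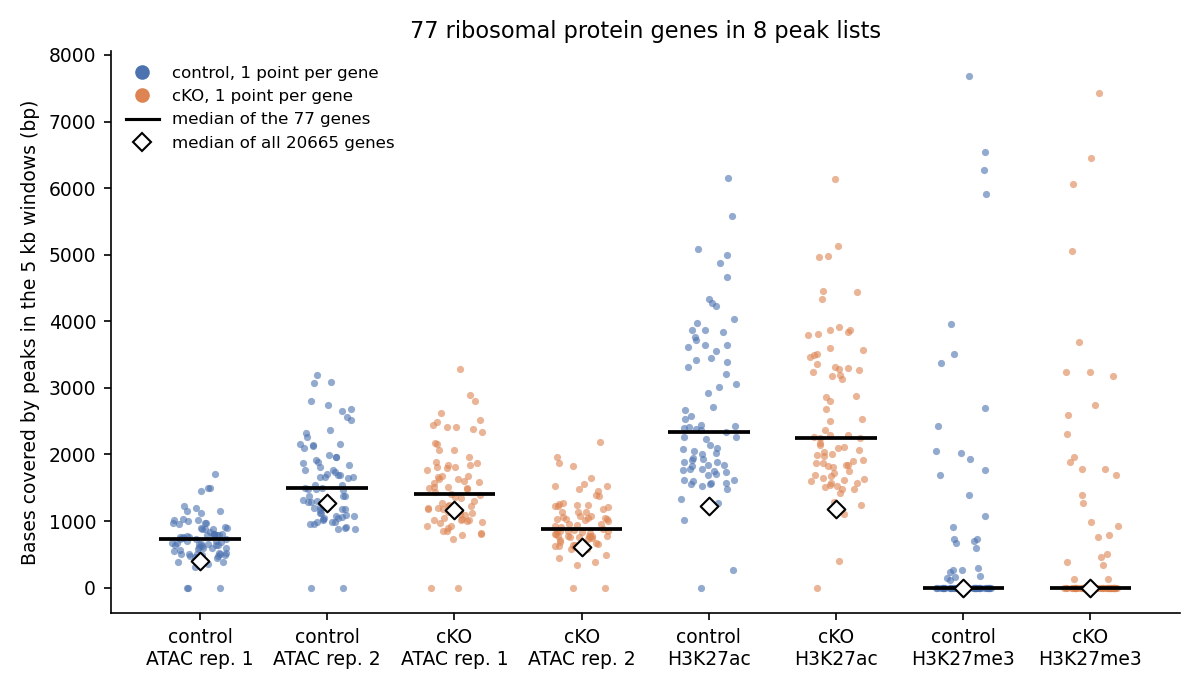
Bases covered by peaks in the 5 kb windows (vertical axis, bp) for each of the 77 ribosomal protein genes (points) in the 8 peak lists, with the median of the 77 genes (line) and of all 20665 genes (diamond). The diamonds include genes with no covered base. The lines of the ATAC lists stand at 724, 1494, 1402 and 879 bp, and those of H3K27ac at 2339 and 2248 bp.

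The ribosomal protein genes differed less between ATAC lists than the lists as wholes did. Over 74 genes covered in both, control ATAC 2 covered a median of 2.12 times as many bases per gene as control ATAC 1, with a range from 1.04 to 4.51. Over the 13935 genes of any kind covered in both the median was 2.52, while control ATAC 2 held 2.74 times as many peaks and 5.15 times as many bases in all. Within the cKO group, cKO ATAC 1 covered 1.52 times as many bases per ribosomal protein gene as cKO ATAC 2, against 1.77 over all genes. Across genotypes, cKO ATAC 1 and control ATAC 2 had a median ratio of 0.968 over 75 ribosomal protein genes. Against control ATAC 1, cKO ATAC 1 had a ratio of 1.95 and cKO ATAC 2 of 1.28. Each of these ratios across genotypes was below the 2.12 between the control lists. The number of reads behind each list is not given, so the part of depth in these ratios was not tested.

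Around the annotated start the marks had a fixed order. ATAC peaks sat on the start itself. Of 57 genes with an annotated start, 52, 53, 53 and 52 had an ATAC peak within 1 kb of it in the 4 lists. The start base lay under the widest such peak in 50, 52, 52 and 50, and under any ATAC peak in 52 in each list. The widest such peak had a median width of 504, 1031, 959 and 657.5 bp, and its centre lay a median of -26.5, 26, 30.5 and -7 bp from the start. These widths were close to those over all genes with such a peak, 493, 1027, 996 and 624 bp. For H3K27ac the widest peak had a median width of 1804 bp in the control and 1700 bp in the cKO library, against 1446 and 1364 bp over all genes. It reached a median of 1148 and 1084 bp into the gene, against 858 and 833 bp over all genes, and 662 and 678 bp upstream.

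Coverage by position showed H3K27ac over the open stretch and on both its flanks. At least 50% of the 57 starts were covered by H3K27ac from -640 to 1140 bp in the control and from -660 to 1100 bp in the cKO library. ATAC reached that share from -260 to 220 bp, -440 to 460 bp, -420 to 440 bp and -300 to 280 bp in the 4 lists. At 100 bp upstream of the start, H3K27ac covered 77.2% of the genes in the control and 73.7% in the cKO library, a dip between 82.5% in both at 300 bp upstream and 93% and 91.2% at 200 bp downstream. At the same 100 bp upstream, the ATAC lists covered 86%, 91.2%, 91.2% and 89.5%. In genes, the H3K27ac dip from 300 to 100 bp upstream was from 47 to 44 of 57 in the control. In the cKO library it was from 47 to 42. At the start base H3K27ac covered 91.2% of the genes in the control and 89.5% in the cKO library. H3K27me3 covered 1.75% of the starts, which is 1 gene, in each library.

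**Figure D2:**
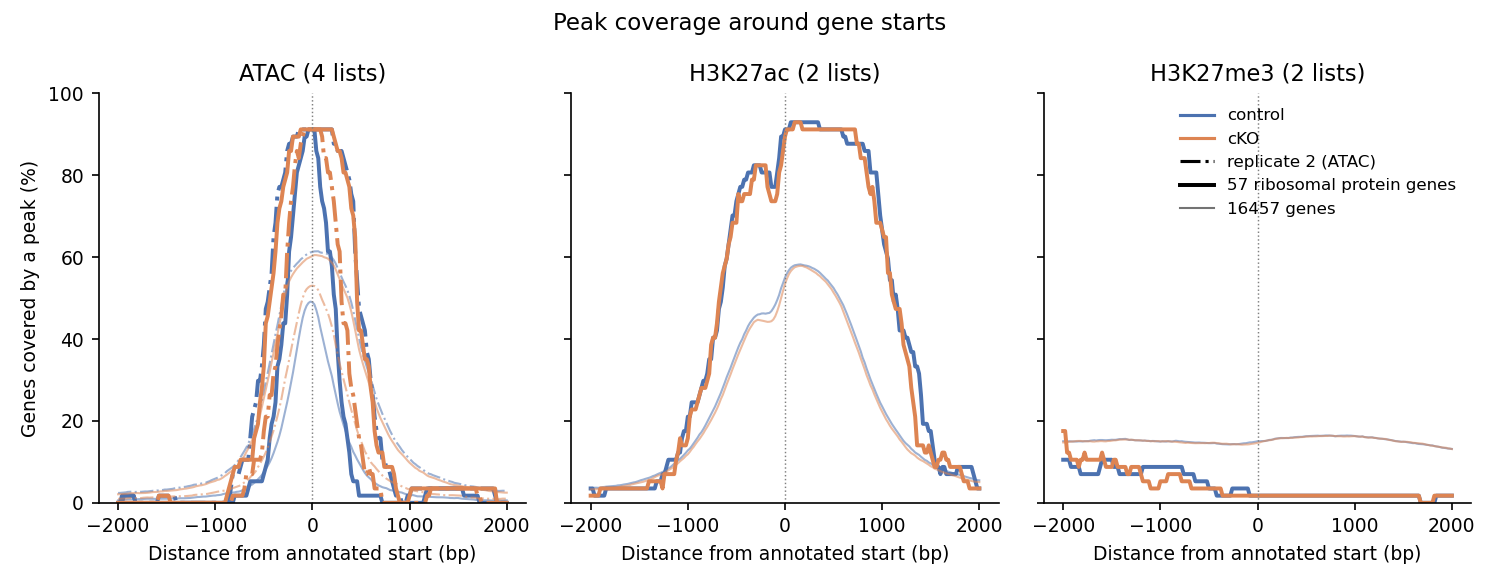
Share of genes covered by a peak (vertical axis, %) by distance from the annotated start (horizontal axis, bp, downstream to the right) for 57 ribosomal protein genes (thick lines) and 16457 genes (thin lines), in ATAC, H3K27ac and H3K27me3 lists. Control lists are blue and cKO lists orange, and the ATAC profiles top out at 91.2% for the ribosomal protein genes in all 4 lists.

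The width of the ATAC peak at the start varied between genes and between lists. The narrowest ATAC peaks at the start, by the mean over 4 lists, belonged to Rpl41 (531.2 bp), Rps28 (562.8 bp), Rpl13 (580.8 bp) and Rpl28 (587 bp). Rpl41, which encodes the shortest protein of the ribosome, had 435, 585, 574 and 531 bp in the 4 lists. Its H3K27ac peak measured 2377 bp in the control and 2876 bp in the cKO library, above the median in both. The widest ATAC peaks belonged to Rpl10a (1085 bp), Rps19 (1054 bp), Rps25 (1052 bp) and Rpl34 (1015 bp). Rps19, the gene most often mutated in Diamond-Blackfan anaemia, had 764, 1260, 1278 and 916 bp. Rps25, a small-subunit protein used in translation from internal entry sites, had 1020, 1063, 1118 and 1005 bp, so its 4 values lay close together where those of Rpl10a ran from 509 to 1486 bp. For Rpl4 the widest peak within 1 kb of the start measured 129 bp in control ATAC 1 and 1222, 1284 and 907 bp in the other lists. The 129 bp peak ended at 64173021, before the start at 64173387 on chromosome 9. It was only a part of the 247 bp covered within 1 kb of that start in control ATAC 1. Genes with the pyrimidine run had a median mean width of 825.8 bp (15 genes) and those without it 842.8 bp (37 genes). With CCGGAA the median was 764.2 bp (27 genes) and without it 842.8 bp (25 genes). These are descriptions over genes and were not tested.

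The exceptions were few and are named here one by one. Rpl10l, Rpl39l, Rpl32l, Rps2 and Rpl17 had no ATAC peak within 1 kb of an annotated end in any list. Rpl19 and Rps27l lacked one in control ATAC 1, and Rps27l also in cKO ATAC 2. For Rps2, Rps27l, Rpl19 and Rpl17 the opening lay inside the annotated gene. Rps2, a protein of the mRNA entry channel, is annotated from 24718121 to 24721927 on chromosome 17 with its start entry at 24720063. Around that start, ATAC peaks covered 520, 849, 834 and 651 bp in the 4 lists and H3K27ac 1771 and 1912 bp. Rps27l, a paralog of Rps27 that p53 is known to induce, had 635, 1121, 1020 and 913 bp within 1 kb of its start at 66946086 on chromosome 9. Its partner Rps27 had 466, 917, 808 and 494 bp within 1 kb of its ends. The values of Rps27l were higher in all 4 lists, over windows placed at its start rather than its ends.

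Rpl19 had 501, 1100, 1139 and 641 bp of ATAC peaks within 1 kb of its internal start at 98026710 on chromosome 11. Rpl17, annotated from 74998978 to 75003381 on chromosome 18, had 417, 919, 937 and 565 bp in its gene body. Both were therefore open in all 4 lists, away from the outer annotated ends. Rpl22, on chromosome 4, has annotated starts at 152324436 and 152325726. The inner one had 407, 912, 910 and 519 bp of ATAC peaks within 1 kb, and H3K27ac covered 1223 bp of it in the control and 914 bp in the cKO library. The outer one had at most 22 bp of ATAC peaks in any list.

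The genes with no ATAC peak near any annotated start were the 3 tissue-restricted paralogs and Rpl32l. Rpl39l was not touched by any peak of the 8 lists in its windows. Rpl10l had no ATAC peak in its windows in any list, and only 257 bp (control) and 397 bp (cKO) of H3K27ac, none of it within 1 kb of an end. Neither gene had H3K27me3. Rpl32l, which is annotated inside Map7 on chromosome 10, had 0, 981, 736 and 333 bp of ATAC peaks in its windows but none within 1 kb of an end, although its printed start holds a run of 10 pyrimidines. The widest H3K27ac peak that met the 1 kb around that start measured 10120 bp in the control and 9562 bp in the cKO library. That peak ended before the start at 20208439, at 20208188 in the control and 20207780 in the cKO library. Within 1 kb of the start H3K27ac covered 1160 and 1005 bp, part of it outside that peak. Rpl32l had no ATAC peak there and no H3K27me3 in its windows.

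Rpl3l, the striated-muscle paralog of Rpl3, was the only gene of the 57 whose start base lay under H3K27me3. The mark covered all 2000 bp within 1 kb of its start, at 24727826 on chromosome 17, in both libraries. In the windows it covered 7679 bp in the control and 7421 bp in the cKO library. No ATAC or H3K27ac peak lay within 1 kb of that start. The ATAC peaks at its far end, of 462, 865, 766 and 541 bp, touched the end of the neighbouring gene Msrb1. Its partner Rpl3 had 687, 1420, 1283 and 923 bp of ATAC peaks and 1816 and 1813 bp of H3K27ac within 1 kb of its ends, and no H3K27me3 there. Rps2, open as described above, ends 5898 bp before Rpl3l begins, with Ndufb10 between them. Without Rpl3l, Rpl10l and Rpl39l, the counts of genes with an ATAC peak were 69, 71, 71 and 70 of 74, and 74 and 73 of 74 had H3K27ac.

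H3K27me3 near the other genes mostly lay off their ends. In the windows it was present in either library for 31 of 77 genes (40.3%, against 49.2% of all genes), and in both libraries for 27. Within 1 kb of an end it was present in either library for 8 (10.4% against 31.3%). Another protein-coding gene ended inside the windows of 20 of the 31, as it did for 57 of all 77. For 12 of the 31 the nearest H3K27me3 peak lay closest to the end of another gene. Large amounts were also at Rpl38 (6547 bp in the control, 6069 bp in the cKO library) and Rpl22 (5917 and 5052 bp). Rpl38, a protein whose loss alters Hox mRNA translation and the axial skeleton in mice, had 1251 and 1066 bp of the mark within 1 kb of its ends. The nearest H3K27me3 peak ended at 114668068 (control) and 114667883 (cKO), before the Rpl38 start at 114668580 on chromosome 11. In the ATAC lists, made from explants and not from the ChIP-seq tissue, peaks covered 600, 1406, 1385 and 830 bp within 1 kb of that start. Rpl5 and Rpl26, which both act on p53 when ribosome assembly is disturbed, had 3371 and 3696 bp, and 3504 and 3172 bp. Smaller amounts were at Rps3 (2692 and 3245 bp), Rpl17 (2432 and 2746 bp), Rpl28 (2045 and 2311 bp), Rpl6 (2026 and 1774 bp) and Rps6 (1932 and 2599 bp). Of the last 5 genes, only Rpl17 had any within 1 kb of an end, with 167 bp in the cKO library.

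Whether loss of Casz1 changed accessibility at these genes was tested with limma on log2(covered bases + 100), each list centred on its median over 15847 tested genes. All values of this paragraph are on that scale, which understates changes of sparsely covered genes. Of the 77 genes, 75 reached the minimum mean of 200 covered bases, and 0 were called in either direction at a Benjamini-Hochberg adjusted p of 0.05. The background was 0 genes in each direction (0% higher, 0% lower). At an unadjusted p under 0.05 limma had 0 ribosomal protein genes, and 5 higher and 3 lower among all genes. That is far below the share of 0.05 that this threshold gives when no gene differs. Each genotype held 1 wide and 1 narrow list, and the part of that spread in the low counts was not tested. The 0 calls therefore do not show that accessibility was unchanged. The lowest adjusted p of limma was 0.9999, and every other setting tried also called 0 genes. Differences of cKO minus control ran from -0.34 to 0.73 (Rpl32l), with 37 of 75 above 0 and a median of -0.0038, against 0.0068 over all genes tested. The sign of that median depended on the libraries. It was 0.17 without control ATAC 1, -0.17 without control ATAC 2, 0.12 without cKO ATAC 1 and -0.15 without cKO ATAC 2. An exact permutation test of 2 against 2 libraries cannot give a two-sided p below 0.333.

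A weaker criterion asks only whether both cKO lists lie on 1 side of both control lists. It was met by 5 ribosomal protein genes in the higher direction (background 7.98% of all genes tested) and by 3 in the lower (background 4.72%), shares close to the background. Rpl15, a core protein of the large subunit, was at 0.05 and 0.19 in the control and 0.35 and 0.66 in the cKO lists, a difference of 0.39 ± 0.27 (SE, n = 2 and 2; adjusted p = 0.9999, limma). Rps21 was at -0.21 and -0.24 against -0.20 and 0.29, and Rpl12 at 0.38 and 0.44 against 0.51 and 0.84. For Rps21, 1 of the cKO lists lay next to the control lists. Rpl17 and Rpl29 differed by 0.22 and 0.20. In the other direction, Rpl26 was at 0.15 and -0.04 in the control and -0.33 and -0.24 in the cKO lists, a difference of -0.34 ± 0.25 (SE, n = 2 and 2; adjusted p = 0.9999, limma). Rpl32 and Rpl6 differed by -0.29 and -0.26. Without the centring, 0 ribosomal protein genes met the criterion in either direction, and of all 15847 genes tested 27 were higher and 7 lower. The genes of general interest were Rplp0, often used as a reference gene (-0.03 ± 0.26, SE), Rps6 (-0.26 ± 0.33) and Rps19 (0.05 ± 0.26). Their control and cKO values overlapped.

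**Figure D3:**
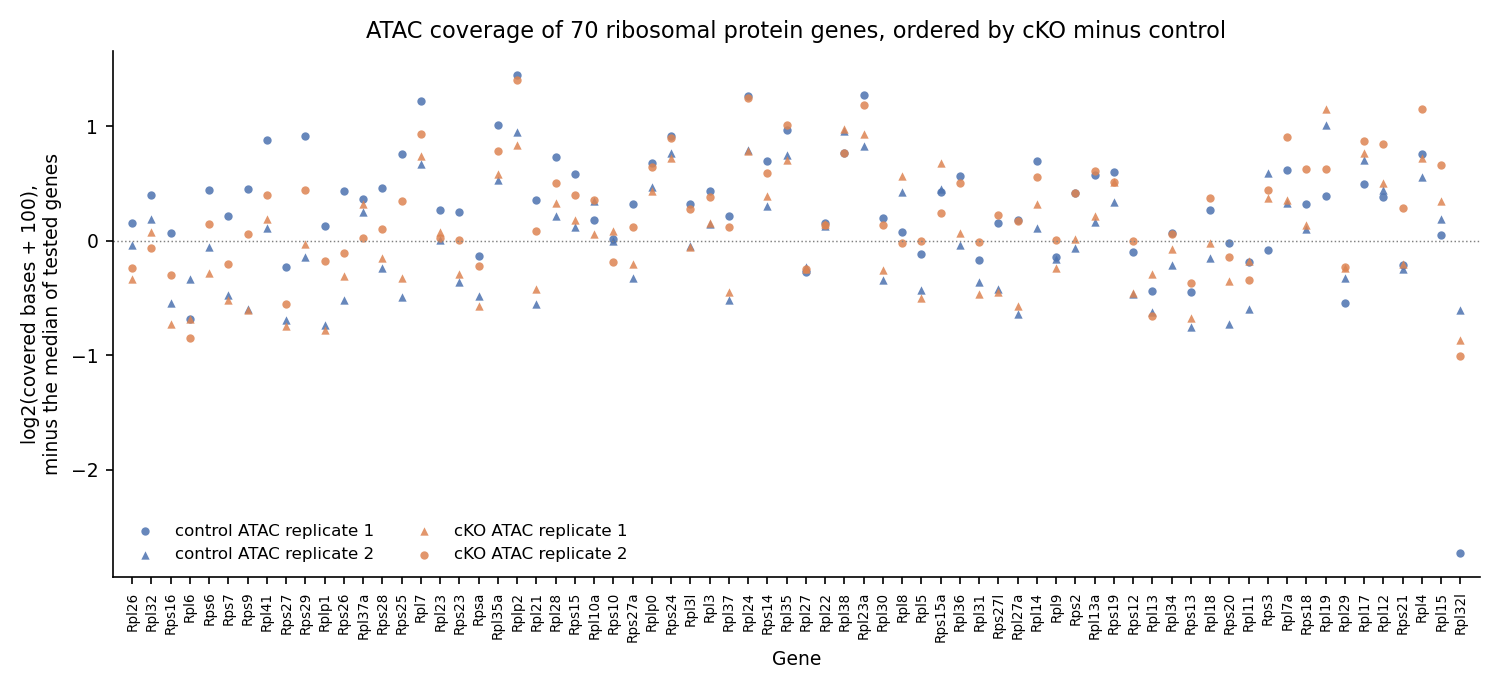
Centred log2(covered bases + 100) in the 5 kb windows (vertical axis) for 70 of the 75 ribosomal protein genes tested (horizontal axis, ordered by cKO minus control, Rpl26 first at -0.34 and Rpl32l last at 0.73) in control (blue) and cKO (orange) ATAC lists. Circles and triangles tell the 2 lists of a genotype apart, and the colours overlap for all but the 8 genes whose groups do not overlap.

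For H3K27ac there is 1 library per genotype, with no replicate check and no test. Of 76 genes with at least 200 covered bases in a library, 2 covered at least 25% more bases in the cKO library (background 6.12%) and 5 at least 20% fewer, the same ratio inverted (background 14.1%). Both shares, 2.63% and 6.58%, were below the background. Divided by each library's median over all marked genes, a shift of 0.0645 on the log2 scale, the split was 5 higher and 3 lower. The share over all genes was not computed after this division, so that split has no background to be read against. The median gene covered 0.9651 times as many bases in the cKO as in the control library, against 0.9579 over all genes. By any amount, 31 genes covered more and 45 fewer, as did 5184 and 9098 of all genes. The middle 50% of the log2 ratios lay from -0.12 to 0.0887, against -0.196 to 0.0594 over all genes.

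The genes past these limits differed mostly more than 1 kb from their ends. Rpl23a, a large-subunit protein beside the exit tunnel, went from 4331 bp in the control to 3186 bp in the cKO library, and Rpl10a from 4996 to 3917 bp. Within 1 kb of the ends, Rpl10a was covered over 2000 bp in both libraries and Rpl23a over 1177 and 921 bp. Rpl11, which binds MDM2 when ribosome assembly fails, had 1939 and 1287 bp in the windows but 1133 and 1078 bp within 1 kb. Rpl22 had 2417 and 1867 bp, and Rpl23 2083 and 1574 bp. The bases of Rpl23 were those of the peak at its start, 2083 and 1574 bp wide. Around the inner start of Rpl22 the mark covered 1223 and 914 bp. Of the 5, Rpl10a did not differ within 1 kb of its ends and Rpl22 had only 75 bp there in the control library, so these differences lay in part or whole beyond 1 kb. In the other direction, Rps14, a protein of the small-subunit platform, had 3051 and 3838 bp. Within 1 kb of its ends it had 1504 bp in the control and 1413 bp in the cKO library, the opposite direction. Rpl10l, at 257 and 397 bp, had the mark only beyond 1 kb.

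The next in difference of bases, short of these limits, were Rps15 (5078 to 4449 bp), Rpl14 (3411 to 2803 bp), Rpl41 (2579 to 3183 bp), Rpl4 (2923 to 3304 bp), Rpl27 (1883 to 2261 bp) and Rps7 (1566 to 1874 bp). Presence changed for 1 gene. Rpl22 had an H3K27ac peak within 1 kb of an end in the control library only (background 1.45%), the 75 bp given above, and 0 genes had one in the cKO library only (background 1.41%). The genes fixed for description in any case lay close to the diagonal. Rplp0 had 2441 and 2527 bp, Rpsa, the laminin receptor homologue of the small subunit, 1848 and 1652 bp, and Rps19 2718 and 2503 bp. Rpl13a had 3980 and 3815 bp, Rpl24 3639 and 3358 bp, Rpl38 3642 and 3597 bp, and Rps27a, which is made as a fusion with ubiquitin, 1784 and 1902 bp.

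H3K27me3 has 1 library per genotype and no test. The genes past the limits below differed only beyond 1 kb of their ends. Other genes differed within 1 kb, in both directions, such as Rpl5 (365 bp in the control, 128 bp in the cKO library) and Rpl26 (578 and 630 bp). Of 28 genes with at least 200 covered bases in a library, 8 covered at least 25% more bases in the cKO library (background 14.9%) and 4 at least 20% fewer (background 19.2%). These shares were 28.6%, above the background, and 14.3%, below it. The largest increases in bases were at Rpl13a (904 to 1881 bp), a protein of the interferon-regulated GAIT complex, Rpl21 (1074 to 1963 bp), Rpl34 (171 to 978 bp), Rpl24 (696 to 1389 bp) and Rps6. The others were Rpl23 (257 to 919 bp), Rps27l (0 to 509 bp) and Rps29 (270 to 466 bp). None of these 8 genes had H3K27me3 within 1 kb of an end in either library. At Rpl13a the nearest peak touched Flt3l, the neighbouring gene, and with windows of 2.5 kb its difference was -90 bp. At Rpl34 the nearest peak lay 2035 bp away in the control and 1841 bp away in the cKO library.

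The 4 genes with at least 20% fewer covered bases were Rps7 (596 to 134 bp), Rpl14 (1692 to 1271 bp, nearest to Entpd3), Rps2 (728 to 388 bp) and Rps20 (239 to 0 bp). The nearest H3K27me3 peak of Rps2 in the control library is the one that covers the start of Rpl3l, from 24726200 to 24729495. In bases, Rpl22 (5917 to 5052 bp) and Rpl38 (6547 to 6069 bp) had larger decreases, both by less than 20%. The median log2 ratio over 26 genes marked in both libraries was 0.15, against -0.01 over all genes. Within 1 kb of an end, Rpl22 had the mark in the control library only (428 bp; background 2.49%) and Rpl17 in the cKO library only (167 bp; background 2.04%).

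**Figure D4:**
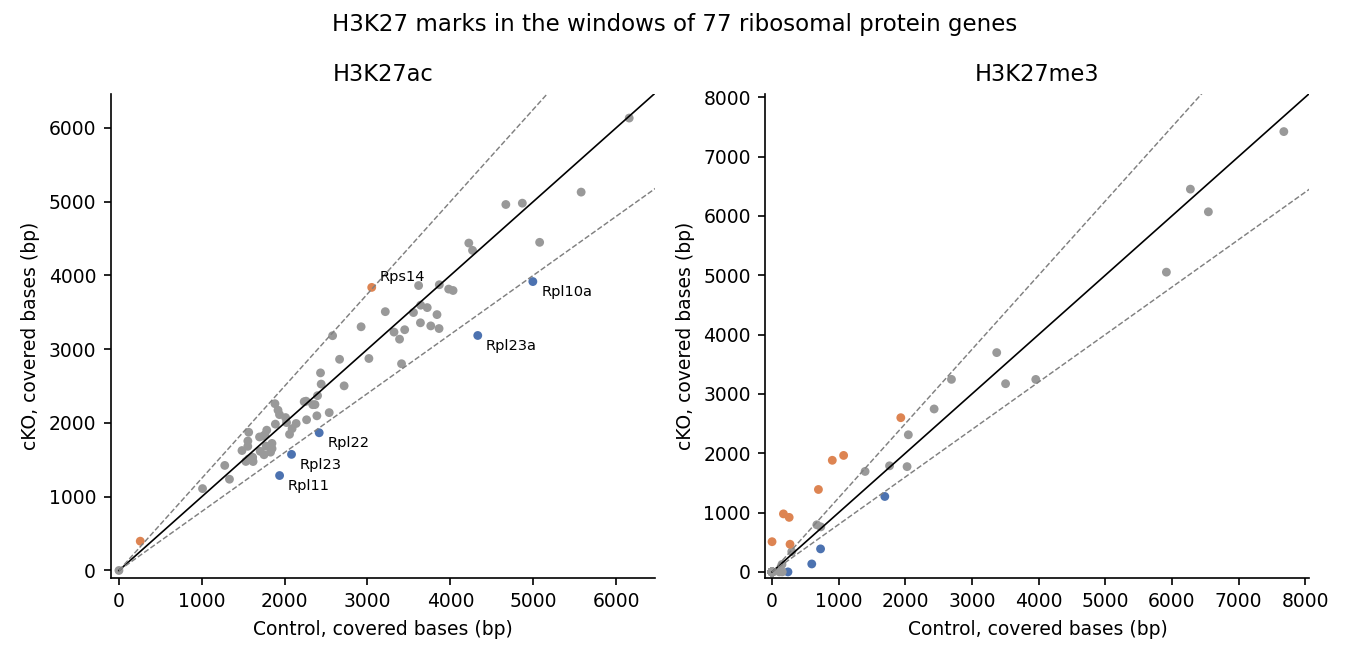
Bases covered in the 5 kb windows in the control (horizontal axis, bp) and cKO library (vertical axis, bp) for the 77 ribosomal protein genes, H3K27ac on the left and H3K27me3 on the right. The solid line is equality and the dashed lines mark 25% more and 20% fewer bases. Genes past a dashed line are orange (2 for H3K27ac, 8 for H3K27me3) or blue (5 and 4).

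Other genes of translation were marked alike. The ribosomal proteins with other symbols, among them Fau, Rack1 and Rps3a1, had an ATAC peak within 1 kb of an end in 4 of 4 cases in every ATAC list, and H3K27ac in 4 of 4 in both libraries. The elongation factors and their partners had both in 9 of 9, the initiation factors in 26 of 26, and the ribosome assembly and RNA polymerase I genes in 22 of 23. Mitochondrial ribosomal proteins, which serve a separate ribosome, had an ATAC peak in 73 to 75 of 78 and H3K27ac in 74 and 73. Their H3K27ac was narrower, with medians of 1618 and 1653 bp in the windows where the cytosolic ribosomal protein genes had 2339 and 2248 bp. The olfactory receptor genes, taken as a closed reference, had an ATAC peak in 4, 25, 20 and 9 of 1104. Of 8 marker genes of the neural retina, 7 had an ATAC peak in control ATAC 1 and 8 in each other list, and 8 had H3K27ac. In each library 5 of the 8 also had H3K27me3 within 1 kb of an end. Of 3 markers of retinal neurons, 3 had an ATAC peak in every list. Markers of microglia had an ATAC peak in 0 to 1 of 4 and markers of blood vessels in 2 to 3 of 4. Of pigment epithelium and lens the counts were 1 to 2 of 4 each. Erythroid markers had an ATAC peak in 0 to 1 of 2 and muscle markers in 1 to 2 of 3.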

How the data were processed

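The deposited files are peak lists in the mm10 build, 1 for each of 8 samples; the 2 input samples were not analysed here. The submitters' processing notes name Bowtie2, MACS2 and deepTools and give no version. The positions are those of the deposited lists, and the deposited score is 0 for every peak, so no height, p-value or read count was available and sequencing depth is unknown. A longer list may hold weaker peaks, and a broad H3K27me3 domain may be split into pieces.

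Groups came from the sample titles. RefSeq (GRCm38.p6) gave the gene positions, and its promoter entries gave starts and strands. Presence needed 1 bp of overlap. Covered bases were computed with Python 3.11.15. ATAC groups were compared with limma 3.58.1 in R 4.3.3 (empirical Bayes, Benjamini-Hochberg over all tested genes, pseudocount 100, minimum mean 200 bp), after the procedure was tested on simulated data. The simulated noise was independent between lists, unlike the deviations of these lists, so that run does not measure the power here. No replicate block was used, because the labels do not tie a number to a day. Histone marks were called at 25% more or 20% fewer bases, with at least 200 bp in a library.

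The genes, lists and tests were chosen with earlier results of these data known. Genes were named if they lacked an ATAC or H3K27ac peak in a list, were among the 12 with most H3K27me3, were paralogs or their partners, had the 5 largest changes per direction and mark, had the 4 widest or narrowest ATAC peaks, or belonged to 10 genes of general interest. Alternatives varied the window, pseudocount, minimum, centring, block and libraries used. Some genes are counted but not reported by name here.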

Additional observations from a re-analysis of the deposited data

How the results depend on the processing

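The 0 calls of limma for ATAC held under every setting tried. They do not measure an absence of change. In the main setting, fewer genes had an unadjusted p under 0.05 than that threshold gives when no gene differs. The replicate block gave 0 ribosomal protein genes and 0 genes of any kind (2 higher and 12 lower at an unadjusted p under 0.05), a pairing of crossed replicate numbers, chosen after seeing the data, gave 0 (143 higher and 220 lower at that unadjusted p), and leaving out any 1 library gave 0. Without control replicate 2, 1 ribosomal protein gene had an unadjusted p under 0.05, as had 1071 higher and 5 lower genes of all 15847, and the lowest adjusted p of limma was 0.4489. Lists with the same replicate number deviated in opposite directions from their group means (correlation -0.805 over genes). The main fit had no pairs for another reason, that the labels do not tie a number to a day. A group left with 1 library is assumed to vary like the other. The counts of ribosomal protein genes whose ATAC groups did not overlap, 5 higher and 3 lower, became 0 and 0 without centring. In that setting 27 of all 15847 genes were higher and 7 lower. The lower count became 7 of 71 with windows of 1 kb, where 721 of all 13330 genes were lower.

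Within 5 kb of an end, 30 genes had H3K27me3 in the control and 28 in the cKO library. The median of H3K27ac was 1929 bp (control) and 1853 bp (cKO) with windows of 2.5 kb, 1611 and 1589 bp with 1 kb, 2023 and 1846 bp at the start alone, and 1764 and 1754.5 bp for genes with no other gene end in their windows, where the control H3K27me3 median was 55.5 bp. The H3K27ac counts of 2 higher and 5 lower became 1 and 1 at 1.5-fold and 5 and 3 after division by the library median. With 2.5 kb windows 0 were higher, with 1 kb windows 0 higher and 1 lower, and for genes with no other gene end 1 was lower. The H3K27me3 counts of 8 higher and 4 lower became 4 higher with 2.5 kb windows, 1 and 2 with 1 kb windows, and 4 and 2 for genes with no other gene end. Rps14 turned to -91 bp of H3K27ac with 1 kb windows and Rpl13a to -90 bp of H3K27me3 with 2.5 kb windows; for both the cause was not tested. Narrower windows test fewer genes. For these alternative counts of the histone marks the share over all genes was not computed, so they cannot be set against a background. No read depth is known, so a missing peak is not a measured absence.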

Other observations

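Ribosomal protein pseudogenes gave a contrast in ATAC and H3K27ac within the same family of sequences. Of 274 annotated pseudogenes of these genes, 0, 1, 1 and 0 carried an ATAC peak in their body in the 4 ATAC lists, and 3 carried H3K27ac in each library. Of the 77 genes, 73, 74, 73 and 73 carried an ATAC peak in their body in the same lists and 75 carried H3K27ac in each library. H3K27me3 lay on 16 of the 274 pseudogenes (5.84%) in the control and 17 (6.2%) in the cKO library. It lay on the body of 3 and 5 of the 77 genes. The sources used here do not say how reads that fit several copies were placed, and the part of such reads in the low counts was not tested.

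Some ribosomal protein genes outside the rule were looked at beside them. On the X chromosome, Rpl10, the widely used partner of Rpl10l, had 815, 1400, 1122 and 942 bp of ATAC peaks in its windows, and Rpl39, the partner of Rpl39l, had 655, 1408, 1103 and 549 bp. Rps4x had 203, 744, 697 and 275 bp, and 5043 bp of H3K27me3 in the control against 3043 bp in the cKO library. With 1 H3K27me3 library per genotype, that difference was not tested. Rpl36al and Rpl22l1, which carry longer suffixes, had 981, 1299, 1337 and 1048 bp, and 538, 878, 863 and 617 bp. Rpl37rt had 0, 981, 369 and 0 bp. Rps27rt had no ATAC or H3K27ac peak within 1 kb of an end and 3420 and 3588 bp of H3K27me3 in its windows.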
